A study of Homo sapiens with 3 samples.

Results

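The ERBB receptors and their ligands were examined in 3 human lung cell lines by the RNA-Seq values of their mRNAs and of the circular RNAs (circRNAs) of the same genes. The members were 10 genes chosen by name, 3 receptors (EGFR, ERBB2 and ERBB3) and 7 ligands (AREG, EREG, BTC, TGFA, HBEGF, NRG1 and EPGN), out of 20494 genes in the mRNA table. Of 92509 circRNAs, 57 had a member as their host gene, from 8 of the 10 members, and BTC and EPGN hosted none. Normal bronchial epithelium, immortalized, gave BEAS-2B. Both A549 and HCC827 come from lung adenocarcinomas, A549 with wild-type EGFR and HCC827 with mutant EGFR whose kinase domain is activated. No line received a treatment, and all 3 were grown in the same medium with fetal bovine serum. Each line is an established culture represented by 1 library made after depletion of ribosomal RNA. The difference between lines therefore cannot be told apart from the difference between libraries, no test was run, and neighbouring values in an order of levels cannot be called different. The 3 pairwise comparisons share their libraries.

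ERBB receptors are tyrosine kinases of the cell surface that pair with each other when a ligand binds and then signal through the RAS-MAPK and PI3K-AKT pathways. EGFR binds AREG, EREG, BTC, TGFA, HBEGF and EPGN, ERBB3 binds NRG1, and ERBB2 has no known ligand but serves as the preferred partner of the others. The ligands are made as membrane-bound precursors and are released by proteases, chiefly ADAM17, and mutant EGFR is a common driver of lung adenocarcinoma.

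The mRNA values were FPKM deposited by the authors, a measure per length of transcript, whose low values are almost always listed as 1. A gene at this value is said to be at the floor, which does not show that its mRNA is absent. Members above the floor in 1 or both lines of a pair were compared. Differences were taken on log2(FPKM + 1), a scale that understates differences of low genes, and a difference of 1, or 2-fold, was the mark for higher or lower. As for the series as a whole, 56.4% to 57.0% of genes were above the floor in each line, and the median difference of all genes compared was -0.16 for A549 over BEAS-2B, -0.14 for HCC827 over BEAS-2B and 0.02 for HCC827 over A549. Of 6 epithelial markers, 5 were higher and 1 lower by 2-fold in A549 than in BEAS-2B, and 4 were higher and 2 lower in HCC827. CDH1 and EPCAM stood at the floor in BEAS-2B and at 198 and 166 FPKM in HCC827, whereas KRT7, at 74.4, 17.5 and 26.3 FPKM in BEAS-2B, A549 and HCC827, and KRT8, at 282, 1419 and 91.6 FPKM, were lower in HCC827 than in BEAS-2B. The mesenchymal marker VIM was at 411 (BEAS-2B), 173 (A549) and 1.47 FPKM (HCC827). The 5 mesenchymal markers summed to 650.4, 284 and 48.2 FPKM in BEAS-2B, A549 and HCC827, and the 6 epithelial markers to 362, 1494 and 1188 FPKM, most of which was KRT8 in BEAS-2B and A549 and KRT19, at 697 FPKM, in HCC827. Of 6 alveolar markers, the surfactant genes SFTPA1, SFTPA2, SFTPB and SFTPC stood at the floor in all 3 lines, while NKX2-1 was at 9.92 FPKM and NAPSA at 34.5 FPKM in HCC827, against the floor in BEAS-2B. Of 6 airway markers, MUC5AC, at 49.2 FPKM, and TP63, at 2.03 FPKM, were above the floor in A549, and none was in BEAS-2B or HCC827. The blood marker genes PTPRC and CD3E and the endothelial marker gene VWF stood at the floor in all 3 lines. CD14, a marker of monocytes, was at 5.65, 3.19 and 1.28 FPKM in BEAS-2B, A549 and HCC827, and HBB and CDH5 were at no more than 1.42 FPKM in any line. The lines thus differed along the epithelial and mesenchymal markers as well as in the ERBB genes, and the part of this in the results below was not tested.

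All 3 receptors were above the floor in every line, and each had its highest value in HCC827. EGFR was the most abundant of the receptors in all 3 lines. EGFR, the receptor for epidermal growth factor, was at 34.6 (BEAS-2B), 27.0 (A549) and 1058 FPKM (HCC827). BEAS-2B and A549 were close and HCC827 stood far above them, and EGFR ranked 23 among all genes of HCC827 by FPKM against 1196 in BEAS-2B and 1387 in A549. The ratio of HCC827 was 30.6 to BEAS-2B and 39.1 to A549, and that of A549 to BEAS-2B was 0.781. On the log2 scale EGFR differed by 4.90 between HCC827 and BEAS-2B, with 35 of 13138 genes compared above it.

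ERBB3, which binds neuregulins and has a weak kinase of its own, was at 8.54 (BEAS-2B), 12.1 (A549) and 56.1 FPKM (HCC827). ERBB2, the partner without a ligand, was at 4.53 (BEAS-2B), 6.33 (A549) and 23.5 FPKM (HCC827). Both receptors were thus lowest in BEAS-2B, slightly higher in A549 and highest in HCC827. The ratio of HCC827 to BEAS-2B was 6.57 for ERBB3 and 5.18 for ERBB2, and the ratio of HCC827 to A549 was 4.62 and 3.71. Against BEAS-2B, A549 was at 1.42 times for ERBB3 and 1.40 times for ERBB2, within 2-fold. The order of levels, EGFR over ERBB3 over ERBB2, was the same in the 3 lines. Summed over the 3 receptors, the levels were 47.7 (BEAS-2B), 45.5 (A549) and 1138 FPKM (HCC827), and EGFR made up most of each sum.

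**Figure D1:**
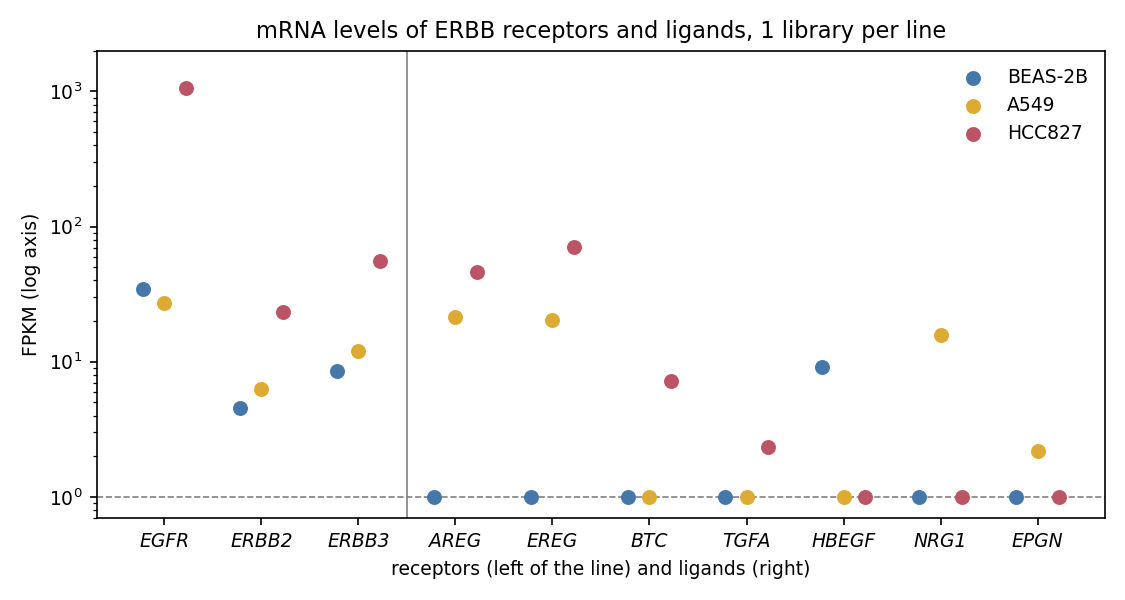
FPKM of each member (log axis) in BEAS-2B, A549 and HCC827, with 1 point per library and the floor of 1 FPKM as a dashed line. EGFR in HCC827 stands at 1058 FPKM, and 6 of the 10 members sit on the floor in BEAS-2B.

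Among the 7 ligands that were members, each line had its own set above the floor. BEAS-2B had HBEGF alone, A549 had AREG, EREG, NRG1 and EPGN, and HCC827 had AREG, EREG, BTC and TGFA. The summed level of the 7 ligands, counting those at the floor as 1 each, was 15.1 (BEAS-2B), 62.9 (A549) and 129 FPKM (HCC827). EREG (epiregulin), a low-affinity ligand of EGFR that also binds ERBB4, was at the floor in BEAS-2B, at 20.4 FPKM in A549 and at 70.5 FPKM in HCC827. AREG (amphiregulin), another EGFR ligand, was at the floor in BEAS-2B, at 21.5 FPKM in A549 and at 46.3 FPKM in HCC827. Of the 7, these were the only ligands above the floor in both cancer lines. HCC827 was higher than A549 for each, by a ratio of 3.46 for EREG and 2.16 for AREG. Against the floor of BEAS-2B, the log2 difference in HCC827 was 5.16 for EREG and 4.56 for AREG, and in A549 it was 3.42 and 3.49. Only 20 of 13138 genes compared had a larger difference than EREG in HCC827. The deposited mRNA values also hold an entry named AREGB, a near-identical copy of AREG, at the floor in all 3 lines. The reference table treats AREGB as a synonym of AREG and not as a second gene. Reads of such a pair of entries could be split in counting, so the level of AREG is uncertain.

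HBEGF, a heparin-binding ligand of EGFR and ERBB4, had the reverse pattern. It was at 9.07 FPKM in BEAS-2B and at the floor in A549 and HCC827, a log2 difference of -2.33 in each. NRG1 (neuregulin), the ligand of ERBB3, was at the floor in BEAS-2B and HCC827 and at 15.9 FPKM in A549, a log2 difference of 3.08 between A549 and BEAS-2B. The line with a high level of NRG1 was thus not the line with the highest ERBB3. BTC (betacellulin), which binds EGFR and ERBB4, was above the floor in HCC827 alone, at 7.24 FPKM. TGFA, the ligand most like epidermal growth factor in its binding, was also above the floor in HCC827 alone, at 2.34 FPKM. EPGN (epigen), a ligand of low affinity, was above the floor in A549 alone, at 2.18 FPKM. The differences of TGFA and EPGN were within 2-fold on the scale of FPKM + 1, at 0.74 and 0.67.

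Of the 10 members, 8 could be compared between A549 and BEAS-2B, and 3 were higher by 2-fold (AREG, EREG and NRG1), against 10.5% of all genes compared. HBEGF was lower, where 15.3% of all genes were lower, and the other 4 were within 2-fold. Between HCC827 and BEAS-2B, 8 members could be compared and 6 were higher (the 3 receptors, AREG, EREG and BTC), against 12.9% of all genes compared. HBEGF was the 1 lower member, where 16.6% of all genes were lower. Between HCC827 and A549, 9 members could be compared, 6 of which were higher and 1 lower, against 13.8% and 12.4% of all genes. The 6 were the 3 receptors, AREG, EREG and BTC, and the 1 was NRG1. At a mark of 4-fold, the same 3 members were higher and HBEGF was lower in A549 than in BEAS-2B, against 2.90% and 2.89% of all genes. The same 6 were higher and HBEGF was lower in HCC827 than in BEAS-2B, against 3.75% and 3.44%. Between HCC827 and A549, 3 members were higher (EGFR, ERBB3 and BTC) and NRG1 was lower, against 3.63% and 3.05%. The median difference of the members compared was 0.57 for A549 over BEAS-2B, 2.36 for HCC827 over BEAS-2B and 1.74 for HCC827 over A549. Members that stand at the floor in 1 line of a pair could enter only through their value in the other line, so these counts and medians describe the values and carry no test. Scaling by the median of ratios over the 9446 genes above the floor in all 3 lines removed a shift of -0.24 for A549 over BEAS-2B and -0.23 for HCC827 over BEAS-2B on the log2 scale, and with it EGFR in A549 moved from -0.34 to -0.11.

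**Figure D2:**
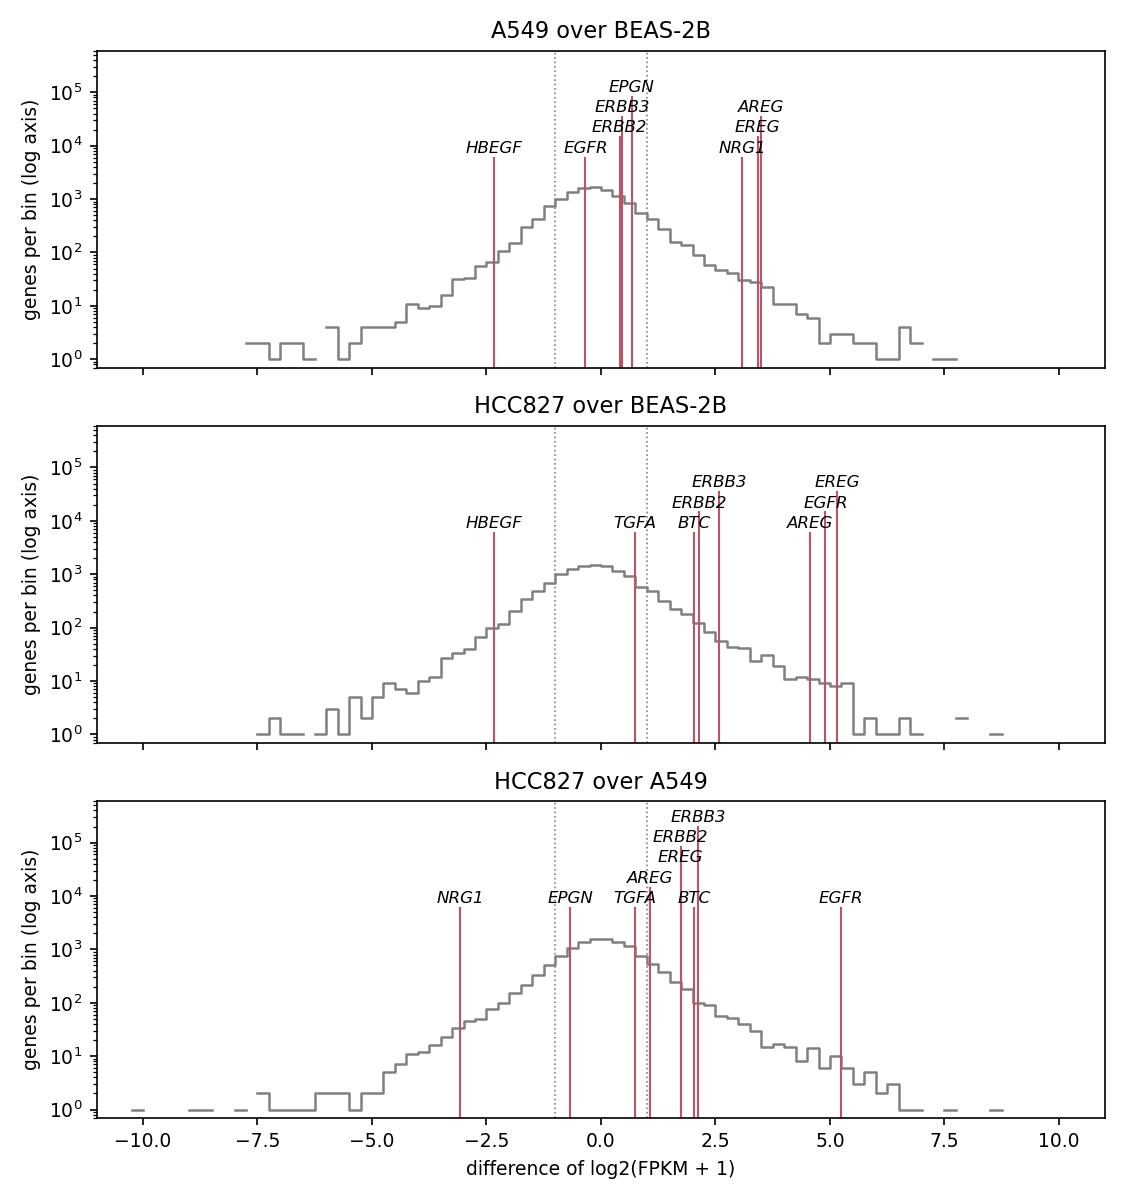
Differences of log2(FPKM + 1) for the 3 pairs of lines, with the number of genes per bin as a grey outline (log axis) and the members as labelled lines whose heights carry no value. Dotted lines mark 2-fold, and EGFR, EREG and AREG lie between 4.56 and 5.16 in HCC827 over BEAS-2B.

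EPGN, EREG, AREG and BTC follow each other on chromosome 4, with no other protein-coding gene of the reference table between them. The plot of neighbouring genes shows the values along this stretch. In A549, EREG and AREG were higher by 2-fold than in BEAS-2B and EPGN and BTC were not. In HCC827, EREG, AREG and BTC were higher and EPGN stood at the floor. Of 12 genes listed on either side, 11 could be compared between A549 and BEAS-2B, and 2 were higher and 3 lower. Over all genes compared, 10.5% were higher and 15.3% lower. CXCL5, a chemokine that attracts neutrophils, was at the floor in BEAS-2B, at 21 FPKM in A549 and at 16.3 FPKM in HCC827. CXCL8, another neutrophil chemokine listed in the table under its older name IL8, was at 127 (BEAS-2B), 19.9 (A549) and 58.7 FPKM (HCC827). Chemokine genes beside the ligands were thus found in both directions. Between HCC827 and BEAS-2B, 10 could be compared, 3 of which were higher and 1 lower, against 12.9% and 16.6% of all genes. THAP6 was higher by 1.49.

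The EREG and AREG promoters are shown because both genes were above the floor in both cancer lines and at it in BEAS-2B, and that of HBEGF because it had the reverse pattern. The sequences are the 150 bases before the start in RefSeq (GRCh38.p14), given 5′ to 3′ on the strand of the gene at chr4:74364995-74365144 (plus strand), chr4:74444986-74445135 (plus strand) and chr5:140346604-140346753 (minus strand). Capitals mark the TATA word TATAAA, the GC box word GGGCGG, the AP-1 word TGACTCA and the CRE word TGACGTCA, each on either strand.
EREG: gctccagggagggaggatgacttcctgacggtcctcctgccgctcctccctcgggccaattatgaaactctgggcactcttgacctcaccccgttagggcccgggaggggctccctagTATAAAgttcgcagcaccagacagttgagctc
AREG: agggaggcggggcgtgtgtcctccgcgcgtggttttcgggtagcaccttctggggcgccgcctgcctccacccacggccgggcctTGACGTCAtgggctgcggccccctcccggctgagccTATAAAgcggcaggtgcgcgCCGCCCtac
HBEGF: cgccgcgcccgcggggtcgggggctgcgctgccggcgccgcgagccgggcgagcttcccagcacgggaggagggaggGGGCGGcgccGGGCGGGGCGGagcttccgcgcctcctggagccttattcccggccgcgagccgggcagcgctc

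EREG, AREG and EPGN each held TATAAA, beginning 32, 29 and 29 bases before the start. The second EGFR promoter held it as well, at 146 and 36 bases before its start. This word was found in 10.7% of all 35116 promoters over the 250 bases searched. AREG alone among the 8 members with a promoter sequence held TGACGTCA, beginning 65 bases before the start, where 1.65% of all promoters held it. HBEGF held GGGCGG 5 times in 250 bases, the last 2 overlapping, and 42.6% of all promoters held this word at least 1 time. The GC box was also found 3 times in the first of the 2 TGFA promoters, 2 times in the first of the 2 EGFR promoters and 1 time in that of AREG. TGACTCA was found only in the second EGFR promoter, and 4.20% of all promoters held it. The promoters of ERBB2 and BTC held none of the 4 words. A match is a description of the letters and not a site of binding.

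EGFR lies on chromosome 7 between SEC61G and LANCL2, and all 5 neighbours listed were, like EGFR, highest in HCC827. SEC61G, a subunit of the channel that takes proteins into the endoplasmic reticulum, was at 183 (BEAS-2B), 163 (A549) and 4354 FPKM (HCC827). The 5 neighbours listed were all higher by 2-fold in HCC827 than in BEAS-2B, where 12.9% of all genes compared were. The differences were 4.56 for SEC61G, 3.99 for LANCL2, 4.29 for VOPP1, 1.90 for PSPH and 2.26 for CHCHD2. In the order of protein-coding genes, PSPH and CHCHD2 stand at places 8 and 12 after EGFR, and the genes between were not all listed. None of the 5 listed differed by 2-fold between A549 and BEAS-2B, where 10.5% of all genes were higher and 15.3% lower. Near ERBB2 on chromosome 17, 2 of 6 genes compared were higher in HCC827 than in BEAS-2B, beside the same 12.9% of all genes. These were GRB7 by 1.69 and PGAP3 by 1.45, and MIEN1, which lies next to ERBB2 as PGAP3 does, differed by -0.47. SEC61G, LANCL2 and VOPP1 thus lay within 1 log2 unit of the difference of EGFR in HCC827, and PSPH and CHCHD2 did not. Near ERBB2 this held for PGAP3 and GRB7 and not for MIEN1 or the other genes compared.

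**Figure D3:**
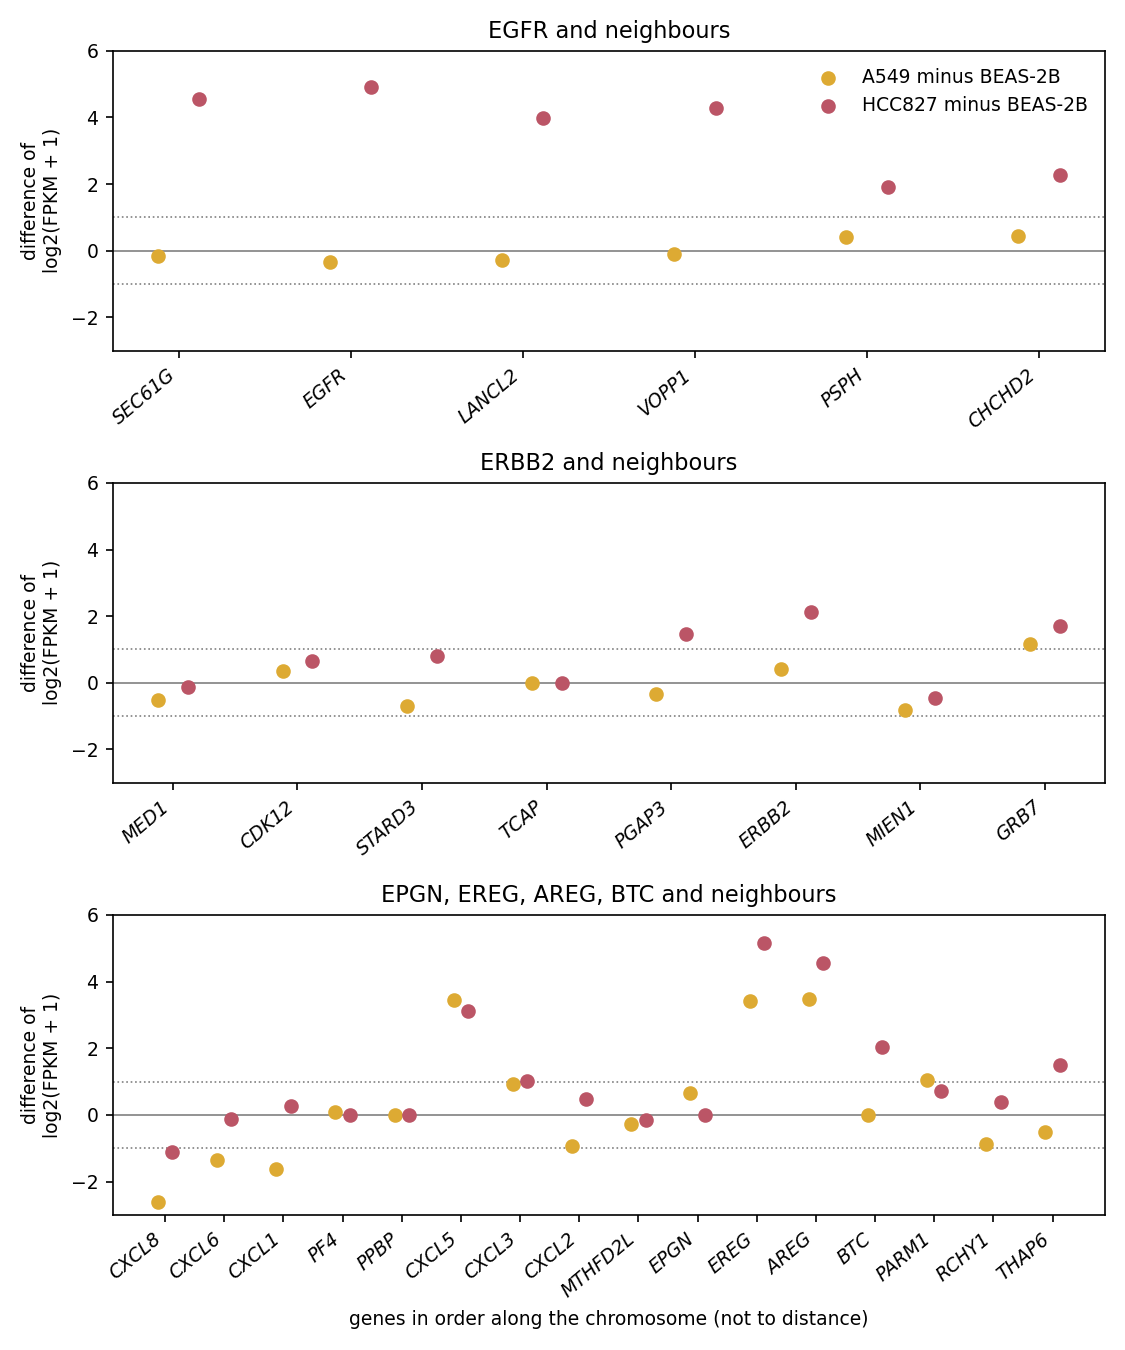
Differences of log2(FPKM + 1) from BEAS-2B in A549 and HCC827 for EGFR, ERBB2 and the ligands of chromosome 4 with listed neighbours. Genes are in order and not to distance, and those between were not all listed. Near EGFR the HCC827 points lie from 1.90 to 4.90 and the A549 points from -0.34 to 0.43.

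The other genes of the family were mostly at the floor. ERBB4, the receptor for neuregulins that was not among the members, EGF and NRG3 stood at the floor in all 3 lines, and NRG2 was no higher than 1.04 FPKM. NRG4, a ligand of ERBB4, was at 2.97 (BEAS-2B), 7.07 (A549) and 2.74 FPKM (HCC827). A549 was thus the line with the highest NRG1 and the highest NRG4.

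The mRNAs of genes listed for a part in ligand release were above the floor in nearly every case. Of 8 such genes, 1 was higher and 1 lower by 2-fold in A549 than in BEAS-2B, and the same numbers held for HCC827. Over all genes compared, 10.5% were higher and 15.3% lower in A549, and 12.9% and 16.6% in HCC827. ADAM17, the main protease for AREG, EREG, TGFA and HBEGF, was at 11.1 (BEAS-2B), 31.1 (A549) and 25.5 FPKM (HCC827). ADAM12, another metalloprotease, was at 17.0 FPKM in BEAS-2B, at the floor in A549 and at 2.27 FPKM in HCC827.

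Of 29 adaptors and signal relay genes, 3 were higher and 3 lower in A549 than in BEAS-2B, and 3 were higher and 6 lower in HCC827, with medians of -0.37 and -0.32. GAB2, a docking protein, was at the floor in BEAS-2B, at 3.98 FPKM in A549 and at 6.25 FPKM in HCC827. GRB7, an adaptor of ERBB2 and its neighbour on the chromosome, was at 3.14 (BEAS-2B), 8.17 (A549) and 12.4 FPKM (HCC827). MAPK3 (ERK1) was at 56.6 (BEAS-2B), 14.1 (A549) and 14.7 FPKM (HCC827), and AKT1 was at 9.60 FPKM, 13.2 FPKM and 1.06 FPKM. The shares of signal relay genes past 2-fold were thus close to those of all genes compared.

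Of 14 genes that restrain the receptors or set their turnover, 12 could be compared between A549 and BEAS-2B. CBL and PTPN1 were the 2 lower, where 15.3% of all genes were lower. Between HCC827 and BEAS-2B, 13 could be compared, 2 of which were higher and 3 lower, counts near the shares of 12.9% and 16.6% over all genes. ERRFI1 (MIG6), an inhibitor of the EGFR kinase, was at 24.1 (BEAS-2B), 42.2 (A549) and 135 FPKM (HCC827). CBLC, a ubiquitin ligase of the CBL family, was above the floor in HCC827 alone, at 8.59 FPKM. CBL, the ubiquitin ligase that marks EGFR for breakdown, was at 16.6 (BEAS-2B), 5.59 (A549) and 7.44 FPKM (HCC827). USP8, which removes ubiquitin from EGFR, was at 19.4, 11.5 and 5.82 FPKM, and the phosphatase gene PTPN1 at 44.5, 16.2 and 17.7 FPKM in the same order.

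**Figure D4:**
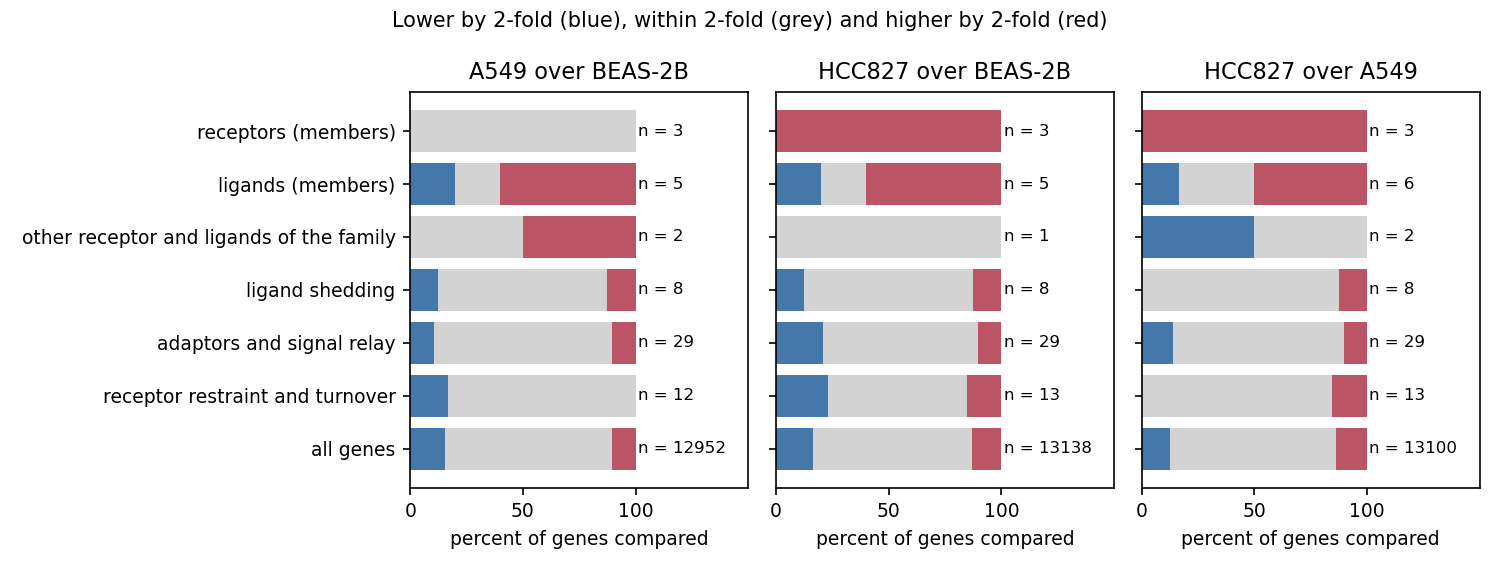
Percent of genes compared that were lower by 2-fold, within 2-fold or higher by 2-fold in each list and over all genes, with the number compared beside each bar. All 3 receptors were higher in HCC827 over BEAS-2B, where 12.9% of all genes were higher.

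The patterns of EGFR, ERBB3 and EREG were compared with 13786 genes above the floor in at least 1 line, by the Euclidean distance of their differences from BEAS-2B in A549 and HCC827. With 3 libraries this likeness rests on 2 numbers per gene. Nearest to ERBB3 was CD68, at a distance of 0.016, with 4.09 (BEAS-2B), 5.98 (A549) and 29.1 FPKM (HCC827). SH2D3A, MRPS17 and PTPN13 followed at 0.13 each, and SH2D3A and PTPN13 stood at the floor in BEAS-2B, unlike ERBB3. Nearest to EREG were XAGE1B at 0.21, TM4SF18 at 0.23, HAVCR1 at 0.34 and ASPH at 0.58. In BEAS-2B, XAGE1B, TM4SF18 and HAVCR1 stood at the floor like EREG, and ASPH was at 15.1 FPKM. For EGFR the nearest were ST14, AZGP1, SFTA2 and LCP1, at distances of 0.35 to 0.36. These 4 stood at the floor in both BEAS-2B and A549, unlike EGFR.

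circRNAs are loops closed by joining the end of an exon to the start of an earlier or the same exon, and the table lists them with TPM. The sources used here do not say how linear transcripts of the host were separated from circRNAs in counting, and whether these values hold both was not tested. circRNAs of a host can overlap. HCC827 listed 4937 circRNAs above 0 against 42706 in BEAS-2B and 43950 in A549, and the median ratio of HCC827 to BEAS-2B over the 1988 circRNAs above 5 TPM in each line was 2.79. The 57 circRNAs of the members comprised 14 of ERBB2, 13 of EGFR, 12 of ERBB3, 7 of NRG1, 4 each of AREG and TGFA, 2 of EREG and 1 of HBEGF. Of these, 17 were at 0 in all 3 lines. Above 0 were 34 in BEAS-2B (59.6%, against 46.2% of all circRNAs), 31 in A549 (54.4%, against 47.5%) and 11 in HCC827 (19.3%, against 5.34%). In BEAS-2B 12 of the 57 were above 5 TPM (21.1%, against 23.4% of all circRNAs), in A549 17 (29.8%, against 22.7%) and in HCC827 10 (17.5%, against 4.65%). Above 5 TPM in each line were 5 (8.77%, against 2.15%), 3 of EGFR and 2 of ERBB2.

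The 3 EGFR circRNAs were low and alike in BEAS-2B and A549 and high in HCC827. hsa_circ_0080220 (chromosome 7, 55209978 to 55214433 in hg19, plus strand) was at 55.1 (BEAS-2B), 47.7 (A549) and 2395 TPM (HCC827), where it ranked 26 among all circRNAs. hsa_circ_0080222 (55214298 to 55225446) was at 26.1 (BEAS-2B), 20.0 (A549) and 1712 TPM (HCC827). hsa_circ_0080228 (55229191 to 55270318) was at 27.1 (BEAS-2B), 22.3 (A549) and 683 TPM (HCC827). Their ratios of HCC827 to BEAS-2B were 43.5, 65.6 and 25.2, each above the median ratio of 2.79, and their ratios of A549 to BEAS-2B were 0.866, 0.765 and 0.823, below the median of 0.900. After scaling by the median of ratios, the ratios of HCC827 to BEAS-2B were 15.4, 23.2 and 8.92.

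The other EGFR circRNAs were not alike. hsa_circ_0080224 and hsa_circ_0080231 were at 697 and 112 TPM in HCC827 and at 0 in both other lines. hsa_circ_0080226 was at 4.79 (BEAS-2B), 0.334 (A549) and 571 TPM (HCC827). In the opposite direction, hsa_circ_0080221 was at 15.5 (BEAS-2B), 17.9 (A549) and 0 TPM (HCC827), and hsa_circ_0080232 at 12.2, 5.72 and 0 TPM. HCC827 thus listed at 0 some EGFR circRNAs that the lines with less EGFR mRNA had above 5 TPM. Only 5.34% of all circRNAs were above 0 in HCC827, against 46.2% in BEAS-2B and 47.5% in A549, so a 0 there is common. hsa_circ_0080221, hsa_circ_0080224, hsa_circ_0080226 and hsa_circ_0080229 share their end at 55233130. Over its 13 circRNAs EGFR summed to 141 (BEAS-2B), 114 (A549) and 6170 TPM (HCC827), or 0.0141%, 0.0114% and 0.615% of all circRNA TPM. The ratio of these sums, HCC827 over BEAS-2B, was 43.7 as deposited and 15.5 after median-of-ratios scaling. The ratio of the EGFR mRNA was 30.6 and 35.8, so the order of circRNA and mRNA ratios turned with the scaling.

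For ERBB2, hsa_circ_0043470 (chromosome 17, 37880978 to 37883256 in hg19, plus strand) was at 6.10 (BEAS-2B), 6.35 (A549) and 84.1 TPM (HCC827). hsa_circ_0043459 (37851240 to 37876087) was at 6.59 (BEAS-2B), 5.25 (A549) and 27.3 TPM (HCC827), a ratio to BEAS-2B of 4.14 that became 1.47 with median-of-ratios scaling. These were the only ERBB2 circRNAs above 0 in HCC827. hsa_circ_0043458, the highest in A549 at 21.7 TPM, was at 9.87 TPM in BEAS-2B, and hsa_circ_0043461, the highest in BEAS-2B at 15 TPM, was at 8.60 TPM in A549. Of the 5 member circRNAs above 5 TPM in each line, 4 were over 5-fold higher in HCC827 than in BEAS-2B, where 31.1% of all such circRNAs were, and all 5 were over 5-fold higher in HCC827 than in A549, where 34.5% were. With median-of-ratios scaling both counts were 3, the EGFR circRNAs, against 10.4% and 9.96% of all such circRNAs. The scaled ratios of hsa_circ_0043470 were 4.88 to BEAS-2B and 4.26 to A549, and that of hsa_circ_0043459 to A549 was 1.67. As deposited, none was over 5-fold lower in HCC827, where 0.755% of all such circRNAs were lower than in BEAS-2B and 0.805% lower than in A549. None of the 5 was past 5-fold between A549 and BEAS-2B, where 1.16% of all such circRNAs were higher and 1.46% lower.

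ERBB3 had no circRNA above 5 TPM in each line. hsa_circ_0026813 (chromosome 12, 56481360 to 56482652 in hg19, plus strand) was at 166 TPM in HCC827 and at 0 in BEAS-2B and A549, and it was the only ERBB3 circRNA above 0 in HCC827. The highest in the other lines were hsa_circ_0026808 at 5.68 TPM in BEAS-2B and hsa_circ_0026809 at 5.50 TPM in A549. The sum over 12 circRNAs was 23.3 (BEAS-2B), 16.5 (A549) and 166 TPM (HCC827).

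**Figure D5:**
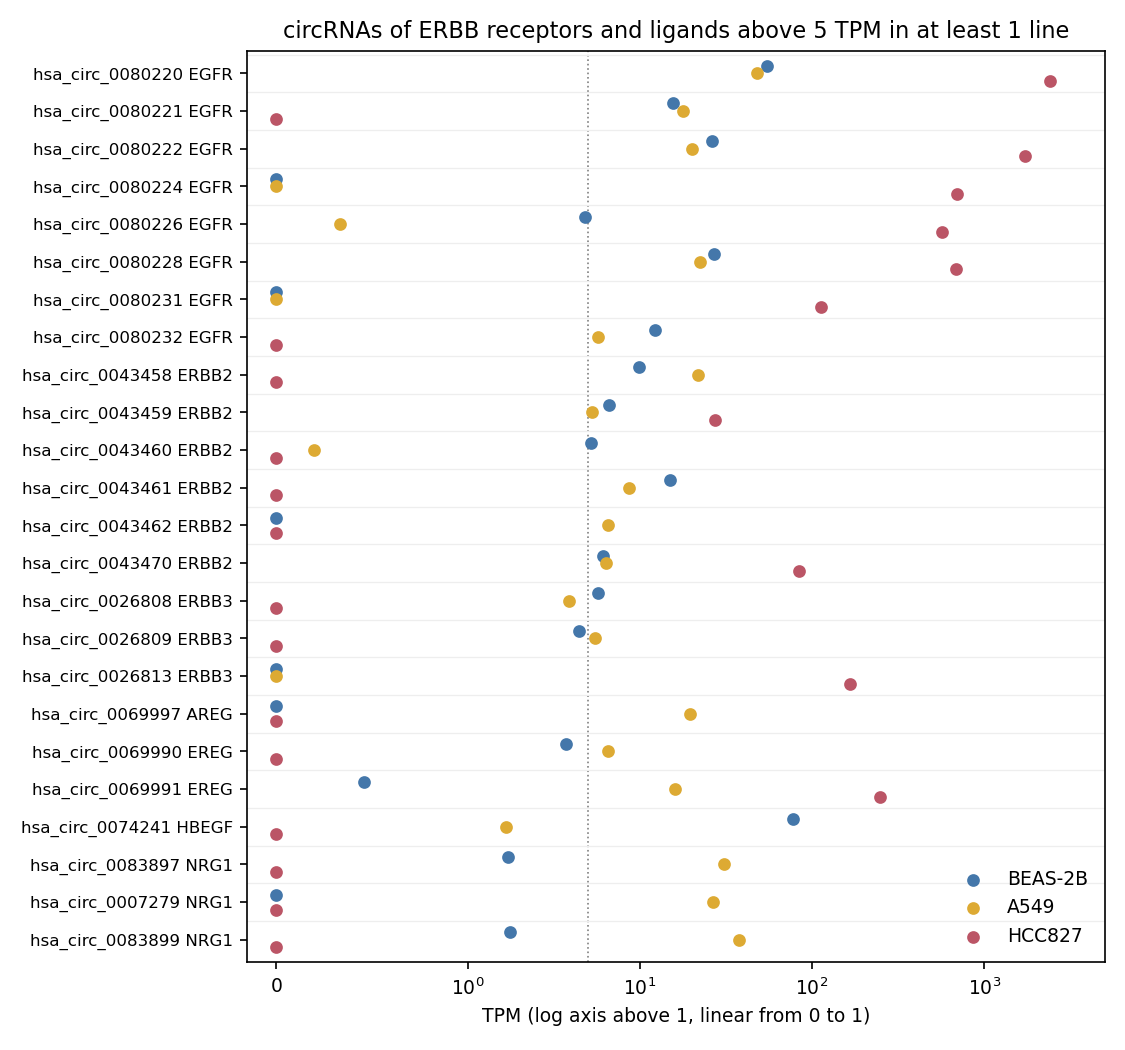
TPM of the 24 member circRNAs above 5 TPM in at least 1 line, 1 point per library, on an axis that is linear from 0 to 1 and logarithmic above. The EGFR circRNAs of HCC827 lie from 112 to 2395 TPM where they are not at 0.

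For 3 of the 5 member ligands with circRNAs, EREG, HBEGF and NRG1, their sum was highest in the line in which the mRNA was highest. hsa_circ_0069991 of EREG (chromosome 4, 75245164 to 75247703 in hg19, plus strand) was at 0.457 (BEAS-2B), 15.9 (A549) and 248 TPM (HCC827). hsa_circ_0069990, which has the same start and spans 88 bases, was at 3.74 (BEAS-2B), 6.55 (A549) and 0 TPM (HCC827). The single circRNA of HBEGF, hsa_circ_0074241 (chromosome 5, 139725495 to 139725669 in hg19, minus strand), was at 77.8 (BEAS-2B), 1.68 (A549) and 0 TPM (HCC827). It was thus highest in BEAS-2B, the line in which alone the HBEGF mRNA was above the floor.

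NRG1 had 3 circRNAs above 5 TPM, all in A549, where the mRNA was above the floor. hsa_circ_0083899 was at 1.77 (BEAS-2B) and 37.7 TPM (A549), hsa_circ_0083897 at 1.72 and 30.8 TPM, and hsa_circ_0007279 at 0 and 26.6 TPM. All 7 were at 0 in HCC827. 1 of them, hsa_circ_0083898, went the other way, with 4.29 TPM in BEAS-2B and 0 in A549. The sum over the NRG1 circRNAs was 7.98 (BEAS-2B) and 99.3 TPM (A549), a ratio of 12.4. TGFA had 4 circRNAs, none above 1.63 TPM in any line. All were at 0 in HCC827, the line in which its mRNA was above the floor but where only 5.34% of all circRNAs were above 0.

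For AREG, as for TGFA with its circRNAs of at most 1.63 TPM, the circRNAs and the mRNA were highest in different lines. HCC827 listed only 5.34% of all circRNAs above 0, so a low value or 0 there does not set a weak circRNA apart. The 4 AREG circRNAs summed to 0.11 (BEAS-2B), 19.9 (A549) and 0.381 TPM (HCC827), whereas the mRNA was higher in HCC827 than in A549. Of these, 3 spanned 163995 to 171403 bases and ended at 75482254 on chromosome 4 in hg19. The other, hsa_circ_0069997 (75482005 to 75482254), carried nearly all of the sum, with 19.6 TPM in A549 and 0 in the other lines. The same 3 values are listed for hsa_circ_0069994 (75312250 to 75312499), which has no listed host gene and spans 250 bases like hsa_circ_0069997. The long hsa_circ_0069995, of 170005 bases, runs from the start of hsa_circ_0069994 to the end of hsa_circ_0069997. Whether these 2 positions are the copies named AREG and AREGB was not tested, so the long spans may not lie within a single gene copy. The deposited values thus do not separate hsa_circ_0069994 from hsa_circ_0069997. No other circRNA of a member above 0 shared all its values with another circRNA.

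The authors also deposited the predicted targets of 9 miRNAs, and these lists named members 15 times. No list named AREG or BTC. EREG and EPGN were each on 3 lists, those of miR-1252-5p, miR-767-5p and miR-889-3p. The mature miRNAs are printed because these neighbouring ligands share them, with the seed (bases 2 to 8) in capitals, from RefSeq (GRCh38.p14).
hsa-miR-1252-5p: aGAAGGAAauugaauucauuua
hsa-miR-767-5p: uGCACCAUgguugucugagcaug
hsa-miR-889-3p: uUAAUAUCggacaaccauugu
The 3 seeds differ from each other. The list of miR-1252-5p held 5 of the 10 members, namely the 3 receptors, EREG and EPGN, and 26.9% of all genes. That of miR-767-5p held EREG, TGFA, NRG1 and EPGN, and 17.2% of all genes, and that of miR-889-3p held EREG and EPGN, and 22.6% of all genes. miR-1299 was listed for EGFR and ERBB2, miR-140-3p for TGFA and miR-942 for HBEGF. EREG, with a log2 difference of 5.16 in HCC827, and EPGN, at the floor there, were on the same lists. These are predictions, and miRNA levels were not analysed here.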

How the data were processed

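RNA depleted of ribosomal RNA was sequenced from the 3 lines, 1 library each. The deposited mRNA values were FPKM made by the authors, whose methods name PEAT, STAR, Cufflinks and GENCODE together with a mouse genome build, while hg19, kallisto, sleuth and FastQC 0.11.7 stand in the submitters' processing notes. The deposited circRNA values were TPM by the authors, and the program was not given in the sources used here. The authors' ratio columns were not used. FPKM and TPM keep no counts, so depth and counting error are unknown. Whether counting used strand is not given.

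Names that occurred in more than 1 row or had become numbers were left out, which left 20494 genes. No test was possible with 1 library per line. Members were taken by exact name, and 120 of 121 entries of 14 gene lists were matched, CXCL8 as IL8, with PECAM1 not matched. Members and lists were chosen with earlier results of these data known. All members were named, at most 3 list genes per direction and the 4 genes nearest to EGFR, ERBB3 and EREG in pattern. For circRNAs, those above 5 TPM in each line and the 2 highest of each line per host were to be named, and the others given were chosen once their values had been seen. Promoter and miRNA sequences came from RefSeq (GRCh38.p14), with promoters for 8 members, and proteins were not used here. Gene order came from the same assembly, and circRNA positions are in hg19. The functions that count calls were tested on simulated data. Python 3.11.15, numpy 2.4.6, pandas 2.3.3 and matplotlib 3.10.9 were used. Alternatives were pseudocounts of 0.1 and 5 FPKM, median-of-ratios scaling, other filters on low values, a 4-fold mark and other TPM levels. The value of 1 marker gene is not reported here.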

Additional observations from a re-analysis of the deposited data

Results flagged for a closer look

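For 1 mRNA, and for 4 of the 5 member circRNAs above 5 TPM in each line, A549 and HCC827 lay on opposite sides of BEAS-2B, and with 1 library per line this difference was not tested. The log2 difference of EGFR mRNA from BEAS-2B was larger by 5.24 in HCC827 than in A549. A549 was below BEAS-2B by less than 2-fold, at -0.34, or -0.11 after median-of-ratios scaling. For the EGFR circRNAs the log2 ratio to BEAS-2B was larger in HCC827 by 5.65 for hsa_circ_0080220, by 6.42 for hsa_circ_0080222 and by 4.93 for hsa_circ_0080228. For hsa_circ_0043459 of ERBB2 it was larger by 2.38. In A549 these 4 circRNAs were within 2-fold of BEAS-2B, at ratios of 0.866, 0.765, 0.823 and 0.797, where the median ratio was 0.900. After median-of-ratios scaling the 4 ratios were 0.956, 0.844, 0.908 and 0.879, so A549 lay near BEAS-2B. Over all circRNAs above 5 TPM in each line, the median log2 ratio of HCC827 to A549 was 1.67. As deposited, the medians of these 1988 circRNAs also fell on opposite sides of BEAS-2B, with ratios of 0.900 (A549) and 2.79 (HCC827). Opposite sides alone therefore do not set the 4 circRNAs apart. How many of all circRNAs, or of all genes for the 1 mRNA, had this pattern was not counted.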

How the results depend on the processing

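A change of pseudocount, filter or mark cannot reverse the direction of a member mRNA difference. Median-of-ratios scaling removed shifts of -0.24, -0.23 and 0.02 on the log2 scale, too small to reverse a difference of 2-fold. The kept directions are therefore no check on the results. With a pseudocount of 0.1 FPKM 2 members were lower in HCC827 than in A549 in place of 1, and with 5 FPKM the median difference of the members between these lines was 1.03 in place of 1.74. At 4-fold, 3 members were higher in HCC827 than in A549 in place of 6. Of the circRNAs of the members, 25 in BEAS-2B and 26 in A549 were above 1 TPM, and 7 and 10 were above 10 TPM. Above 10 TPM in each line were 3, and 24 were above 5 TPM in at least 1 line. The differences of members that stand at the floor in a line moved most with the pseudocount, that of EREG between HCC827 and BEAS-2B from 6.0 at 0.1 FPKM to 3.65 at 5 FPKM, and that of HBEGF from -3.06 to -1.23. Median-of-ratios scaling lowered the ratio of HCC827 to BEAS-2B of all 5 circRNAs above 5 TPM in each line, and those over 5-fold higher in HCC827 became 3 in place of 4 against BEAS-2B and 3 in place of 5 against A549, an alternative for these counts that was chosen after seeing the data. Median-of-ratios scaling left each count of member mRNAs past 2-fold unchanged. Dropping the filter on low values, or a filter at 2 FPKM, could not change these counts. A member past 2-fold is above 2 FPKM in a line of the pair, and members at the floor in both lines do not differ. No paired analysis was possible because each line has 1 library.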
